A study of Mus musculus with 31 samples.

Results

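A group of peroxins, the proteins that build peroxisomes, are described here in the liver and in epididymal white adipose tissue, a visceral fat depot (eWAT), of F1 mice. The genes were Pex2, Pex3, Pex5, Pex6, Pex7, Pex13, Pex14, Pex16 and Pex19. They were taken by symbol, without regard to level, and all 9 of 9 were measured in both tissues, among 13677 genes in liver, 15987 in eWAT and 12735 in both. Pex16 was chosen by measured values, because its difference between HF and LF animals ran in opposite directions in liver and eWAT, so the HF against LF values are given as a description, with no test.

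The animals were wild-type C57BL/6 males aged 24 weeks, in 3 arms tagged HFLFD, HFD and LFD and named HFLF, HF and LF here. According to the labels, every animal ate chow after weaning and then LFD from week 6 for 18 weeks, so the tag was read as the arm of the paternal line, which rests on the series title and which no label spells out. Liver had 6 HFLF, 5 HF and 4 LF libraries, and eWAT had 6 HFLF, 6 HF and 4 LF libraries. Labels do not say whether animals came from separate litters, so the p-values measure the spread between these animals.

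Peroxisomes oxidise very long chain fatty acids, begin ether lipid synthesis and break down hydrogen peroxide, and hepatocytes are rich in them. Their membrane proteins are inserted by Pex3, Pex16 and Pex19, and their matrix enzymes are made in the cytosol, bound by the receptors Pex5 or Pex7, and passed through a membrane complex of Pex13 and Pex14. Pex2 is part of the ubiquitin ligase that marks used Pex5, and Pex6 is part of the ATPase that pulls it out of the membrane for another round. In fat cells peroxisomes supply ether lipids, and loss of Pex16 from adipose tissue of mice impairs their response to cold.

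Each liver library held 9225373 to 17268415 counts and each eWAT library 9278083 to 27230205, and the 9 genes had at least 230 counts in every library. Levels are in CPM, counts relative to the size of the library, scaled between libraries with trimmed means of M values (TMM). Summed hepatocyte markers (10 of 10 measured in both tissues) ran from 96165 to 126092 CPM in liver and from 1363 to 6803 in eWAT, and summed adipocyte markers ran from 147 to 221 CPM in liver (6 of 10 measured) and from 34195 to 50372 in eWAT (10 of 10 measured). Of 10 testis germ cell markers, 7 were measured in eWAT, and their sum was 154 and 202 CPM in HF 2 and HF 6, 83.4 and 82.3 CPM in LF 3 and LF 6, and 40.1 to 53.9 CPM in the other 12 eWAT libraries. Most of that lower level was Odf2, which liver also expresses, whereas Prm2, a sperm protamine, had 5.62 to 45.0 CPM in those 4 libraries and 0 to 1.08 CPM in the other 12, at 0 in 3 of them. Summed B cell markers were highest in HF 3 and HF 5 (103 and 208 CPM) and LF 2 (537 CPM), against 10.1 to 35.0 CPM in the other 13 eWAT libraries. The eWAT differences between arms printed for single genes are given with and without the 4 testis-high libraries. Without them LF 2 and LF 5 are the only LF libraries left in eWAT. LF 2 had the highest B cell sum (537 CPM) and the lowest adipocyte sum (34195 CPM) of the eWAT libraries. In bulk tissue, fewer cells of a type and less RNA per cell cannot be told apart.

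Of the 9 genes, 6 were higher in liver than in eWAT, with the matrix import receptors, the ligase and the recycling ATPase among them, and the other 3 were lower in liver. All 9 passed edgeR's quasi-likelihood test with Benjamini-Hochberg adjustment at 0.05 over the 12735 shared genes. In this comparison 85.5% of genes passed, 42.6% higher and 42.9% lower in liver, so a pass is near the background. The median of the 9 genes was 1.07 on the log2 scale, against 0.00 for all shared genes. Libraries of both tissues were scaled together for this comparison and treated as independent, though some may come from the same animals.

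The PTS2 receptor Pex7 had the largest difference of the 9, at 8.0 CPM per kb of exon in liver (range 6.70 to 9.41, n = 15) and 2.08 in eWAT (range 1.75 to 2.24, n = 16), a log2 fold change of 1.94 ± 0.05 (SE, edgeR adjusted p = 4.19e-25). Pex6 averaged 70.4 CPM per kb in liver and 26.8 in eWAT (log2 1.39 ± 0.07). Pex5, the PTS1 receptor, averaged 68.2 CPM per kb in liver and 26.8 in eWAT (log2 1.34 ± 0.06). The libraries of the 2 tissues did not overlap for any of these 3 genes. Pex2 averaged 29.1 CPM per kb in liver and 13.7 in eWAT (log2 1.09 ± 0.04), and the docking protein Pex14 averaged 14.5 in liver and 6.83 in eWAT (log2 1.07 ± 0.06). Their libraries did not overlap between tissues either. The share of all shared genes without overlap between the tissues was not computed, so the lack of overlap has no background here.

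The 3 membrane insertion genes differed less. Pex16 averaged 89.7 ± 8.53 CPM per kb in liver and 56.2 ± 11.4 in eWAT (SD, n = 15 and 16), with libraries overlapping between 72.0 and 79.7, a log2 fold change of 0.65 ± 0.06 (edgeR adjusted p = 3.41e-11) that turned to −0.08 ± 0.06 when only library totals were used for scaling. That scaling moved the median of all shared genes to −0.73. Pex3, the membrane anchor that Pex19 docks to, was lower in liver, at 7.10 CPM per kb in liver and 9.32 in eWAT (log2 −0.40 ± 0.07). Pex19, the soluble chaperone of membrane proteins, was 52.2 in liver and 57.4 in eWAT (log2 −0.15 ± 0.05, edgeR adjusted p = 0.00957), and that call was lost without the 4 testis-high eWAT libraries (adjusted p = 0.0547). Pex13, the partner of Pex14 in the import pore, was also lower in liver, at 15.9 CPM per kb in liver and 20.4 in eWAT (log2 −0.35 ± 0.06).

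**Figure D1:**
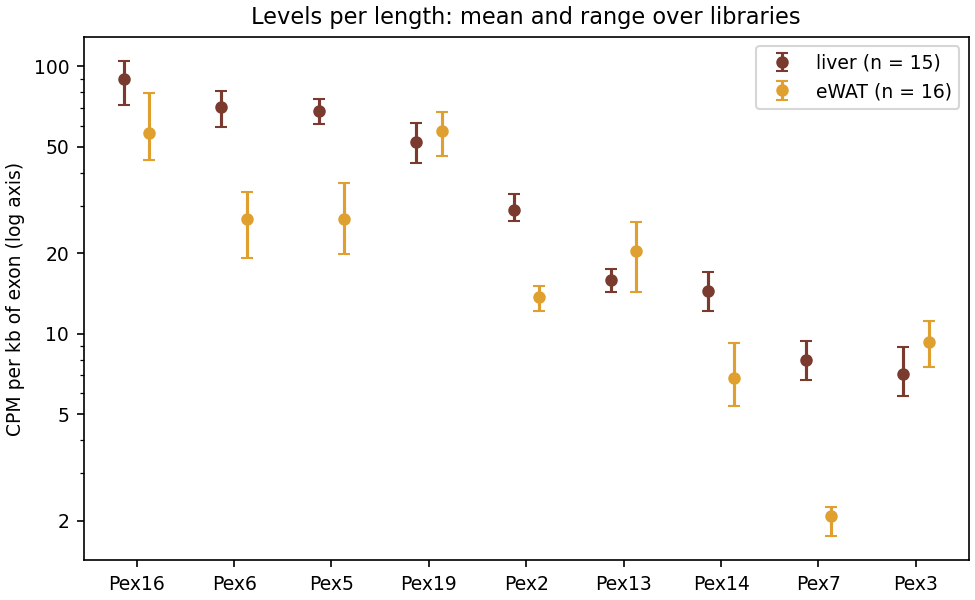
Mean level of each gene in CPM per kb of merged exon (log axis) in liver (n = 15 libraries) and eWAT (n = 16), with bars from the lowest to the highest library. Pex16 is the highest in liver at 89.7, and Pex19 and Pex16 are the highest in eWAT at 57.4 and 56.2, with Pex7 and Pex3 lowest in liver and Pex7 lowest in eWAT.

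Per length, the order in liver was Pex16, Pex6, Pex5, Pex19, Pex2, Pex13, Pex14, Pex7 and Pex3. Neighbours overlapped between libraries except at 3 steps, namely Pex19 above Pex2, Pex2 above Pex13, and Pex14 above Pex7. In eWAT the order was Pex19, Pex16, Pex6, Pex5, Pex13, Pex2, Pex3, Pex14 and Pex7. There the steps without overlap were Pex16 above Pex6, Pex2 above Pex3, and Pex14 above Pex7. The top of the order in eWAT was thus held by a pair of membrane insertion genes, and their partner Pex3 was seventh. With the longest transcript as length instead of all exons, Pex5 moved above Pex6 in both tissues. In liver Pex14 (23.8) then moved above Pex13 (17.8).

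Pex16 lies at chr2:92374676-92381217 on the plus strand (GRCm38). In eWAT its level was 118, 152, 147, 104, 119 and 158 CPM in HFLF 1 to 6, it was 102, 96.4, 97.7, 111, 96.2 and 99.8 CPM in HF 1 to 6, and it was 119, 149, 119 and 180 CPM in LF 2, 3, 5 and 6. The HF animals lay in a narrow band below all 4 LF animals, and below 5 of 6 HFLF animals, while HFLF and LF overlapped. The means were 133 ± 22.2 CPM in HFLF, 100 ± 5.43 in HF and 142 ± 29.1 in LF (SD). The difference was 0.40 ± 0.12 for HFLF over HF, −0.09 ± 0.13 for HFLF over LF and −0.50 ± 0.13 for HF over LF (log2 ± SE).

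In HFLF against HF in eWAT, 0 of the 9 genes passed the adjusted threshold by edgeR, DESeq2 or limma voom (background 0% by edgeR and voom, 0.857% by DESeq2). Pex16 alone among them was under an unadjusted p of 0.05 (edgeR adjusted p = 0.419), as were 1486 of all 15987 eWAT genes. This comparison shares its HF libraries with the one that singled Pex16 out. Against LF, HFLF animals gave 0 of 9 calls in eWAT by the same 3 tools (background 0% by edgeR and voom, 0.469% by DESeq2). By edgeR 0 of 9 were at an unadjusted p under 0.05 (Pex16 adjusted p = 0.842), against 1733 of all 15987 eWAT genes. Pex16 turned to 0.04 for HFLF over LF without LF 6. In HF against LF, 1 of the 9 genes had groups that did not overlap, and it was Pex16, where 0.513% of all eWAT genes were lower in HF without overlap and 0.413% higher.

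The 2 LF libraries highest in Pex16 were LF 3 and LF 6, which were also high in testis transcripts. The 2 HF libraries high in those transcripts, HF 2 and HF 6, had 96.4 and 99.8 CPM of Pex16. Without all 4, the LF arm held only LF 2 and LF 5. The log2 difference was then −0.23 ± 0.15 for HF over LF, 0.38 ± 0.12 for HFLF over HF and 0.15 ± 0.15 for HFLF over LF. The part of testis RNA in these values was not tested. Without LF 2, HF 3 and HF 5, the libraries high in B cell transcripts, HF over LF was −0.54 ± 0.16.

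**Figure D2:**
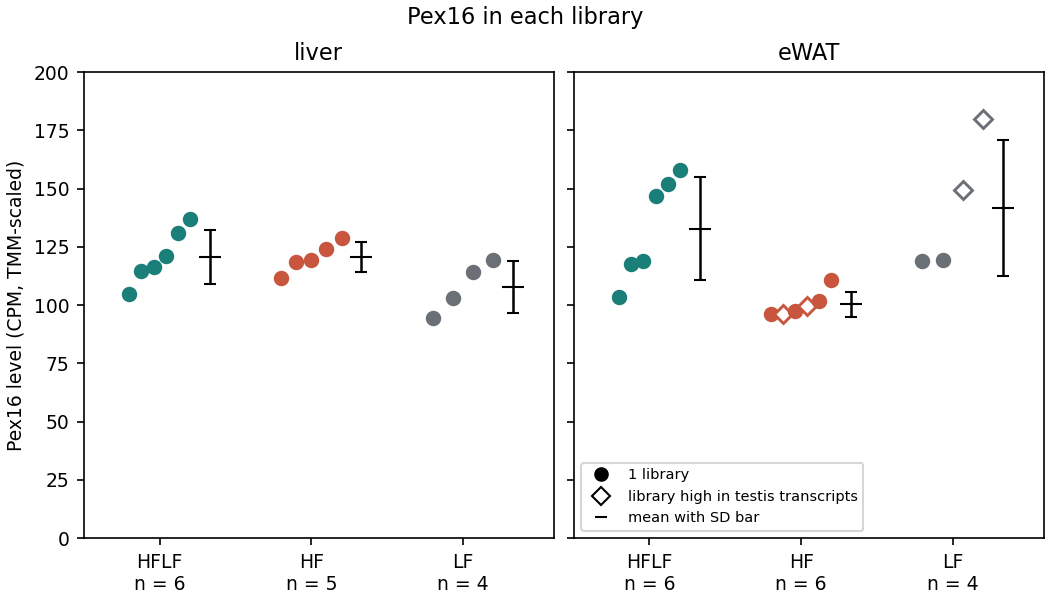
Pex16 level (CPM, TMM-scaled within each tissue) in every library of liver and eWAT, by arm, with the mean and SD beside the points and open diamonds for the 4 eWAT libraries high in testis transcripts. In eWAT the 6 HF libraries sit between 96.2 and 111 CPM, below all 4 LF libraries, and in liver the 3 arms overlap.

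In liver Pex16 had 131, 105, 137, 116, 121 and 115 CPM in HFLF 1 to 6. It had 112, 129, 118, 119 and 124 CPM in HF 1, 2, 3, 5 and 6, and 114, 119, 103 and 94.4 CPM in LF 1, 2, 3 and 6. The 3 arms overlapped, with LF 3 and LF 6 lowest. The log2 differences were 0.00 ± 0.08 for HFLF over HF, 0.16 ± 0.09 for HFLF over LF (edgeR adjusted p = 0.868) and 0.16 ± 0.09 for HF over LF. None of the 9 genes passed in liver for HFLF against HF or HFLF against LF, by edgeR, DESeq2 or limma voom. The background was 0% in both by edgeR and voom, and by DESeq2 0% for HFLF against HF and 0.127% for HFLF against LF. By edgeR 0 of 9 were under an unadjusted p of 0.05 in either. Of all 13677 liver genes, 255 were for HFLF against HF and 748 for HFLF against LF. Without LF 6 the HFLF over LF value of Pex16 was 0.11.

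The difference between the tissues in Pex16 is taken as liver minus eWAT. For HF over LF it was 0.64 ± 0.16, and 0.38 ± 0.17 without the testis-high libraries, which is what the gene was chosen for and has no test here. For HFLF over HF it was −0.39 ± 0.14, which did not pass (edgeR adjusted p = 0.952). That comparison shares the HF libraries of both tissues with the one that chose Pex16. Pex16 alone of the 9 genes was under 0.05 unadjusted there, as were 629 of the 12735 shared genes. For HFLF over LF the Pex16 difference was 0.26 ± 0.15 (edgeR adjusted p = 0.867). There 0 of 9 were under 0.05 unadjusted, against 744 of the 12735 shared genes. The HFLF over LF value was 0.14 without LF 6 of eWAT and 0.00 ± 0.16 without the testis-high libraries, and the HFLF over HF value was −0.38 ± 0.14 without them. Neither comparison called any of the 9 genes by edgeR or limma voom (background 0% in each). DESeq2 also called 0 of 9 for HFLF over HF (background 0%), and for HFLF over LF it called 0 of the 3 genes to which it gave an adjusted p, which left out Pex16 (background 2.62%).

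Pex19, at chr1:172126755-172136493, hands newly made membrane proteins to Pex3. In liver it had 150, 135, 154, 139, 159 and 153 CPM in HFLF 1 to 6, against 142, 164, 148, 174 and 153 CPM in HF 1, 2, 3, 5 and 6, and 122, 138, 125 and 145 CPM in LF 1, 2, 3 and 6. LF 2 and LF 6 lay inside the range of the other arms, and LF 1 and LF 3 lay below every HFLF and HF library. The log2 differences were −0.07 ± 0.08 for HFLF over HF, 0.16 ± 0.08 for HFLF over LF (edgeR adjusted p = 0.868) and 0.24 ± 0.08 for HF over LF. In eWAT Pex19 ran from 236 to 323 CPM in HFLF, from 239 to 266 in HF and from 213 to 328 in LF, with log2 differences of 0.18 ± 0.10 for HFLF over HF, 0.07 ± 0.11 for HFLF over LF and −0.11 ± 0.11 for HF over LF. The wide LF range came from LF 2 at 213 CPM and LF 6 at 328 CPM, and HFLF over LF turned to −0.03 without LF 2, while HF over LF was −0.01 without LF 6. Without the testis-high libraries the 3 differences, in the same order, were 0.17, 0.14 and −0.03.

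Pex3, at chr10:13523842-13553142, overlaps Adat2 on the other strand over 249 bases, 5.25% of its exons, and the strand setting of the counts is not given, so their reads there cannot be told apart. Adat2 itself averaged 4.17 CPM in HFLF, 3.86 in HF and 3.92 in LF in eWAT. In liver Pex3 ran from 20.6 to 31.7 CPM in HFLF, from 22.3 to 26.7 in HF and from 20.4 to 29.6 in LF. In eWAT it ran from 52.2 to 64.3 CPM in HFLF, from 46.0 to 56.7 in HF and from 43.2 to 64.8 in LF. Pex3 therefore overlapped between all arms in both tissues, and its log2 differences lay between −0.07 and 0.14. In eWAT those above 0 were 0.14 ± 0.10 for HFLF over HF and 0.07 ± 0.11 for HFLF over LF, or 0.08 and 0.07 without the testis-high libraries, and the second was −0.03 without LF 2. HF over LF was −0.07 ± 0.11, or −0.01 without the testis-high libraries.

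Among the import receptors, Pex5 (chr6:124396816-124415067) carries most matrix enzymes, those with a PTS1 signal. In eWAT it had 117, 138, 140, 117, 131 and 165 CPM in HFLF 1 to 6, 133, 95.1, 118, 120, 112 and 114 CPM in HF 1 to 6, and 113, 152, 131 and 184 CPM in LF 2, 3, 5 and 6. Its arms overlapped, with HF 2 lowest and LF 6 highest. The log2 differences were 0.22 ± 0.11 for HFLF over HF (edgeR adjusted p = 0.562), −0.11 ± 0.13 for HFLF over LF (0.03 without LF 6) and −0.33 ± 0.13 for HF over LF. The HF over LF value was −0.19 without LF 6. Without the 4 testis-high libraries, whose part was not tested, the differences were 0.15 ± 0.10 for HFLF over HF, 0.13 ± 0.13 for HFLF over LF and −0.02 ± 0.14 for HF over LF, so the second turned. It was −0.21 without LF 2. In liver Pex5 ran from 176 to 217 CPM in HFLF, from 181 to 203 in HF and from 180 to 221 in LF, with differences of −0.05 to −0.01.

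Pex7 (chr10:19853900-19907689) carries the few matrix enzymes with a PTS2 signal. It ran from 59.9 to 83.4 CPM in HFLF livers, from 63.1 to 76.6 in HF livers and from 61.8 to 77.2 in LF livers. In eWAT it ran from 29.3 to 34.0 CPM in HFLF, from 26.1 to 31.6 in HF and from 28.5 to 33.4 in LF. Pex7 overlapped between all arms, and its 3 eWAT differences were 0.13 ± 0.07 for HFLF over HF, 0.05 ± 0.08 for HFLF over LF and −0.08 ± 0.08 for HF over LF, or 0.10, 0.08 and −0.02 without the testis-high libraries.

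In the docking complex, Pex14 (chr4:148960535-149099876) is where loaded Pex5 lands. In eWAT it had 48.9, 54.1, 58.3, 42.6, 52.0 and 63.0 CPM in HFLF 1 to 6, 51.4, 40.7, 47.8, 47.8, 50.6 and 48.8 CPM in HF 1 to 6, and 46.3, 60.6, 57.0 and 73.4 CPM in LF 2, 3, 5 and 6. As for Pex5, HF 2 was lowest and LF 6 highest, and the arms overlapped. The log2 differences were 0.15 ± 0.11 for HFLF over HF (edgeR adjusted p = 0.681), −0.16 ± 0.12 for HFLF over LF and −0.31 ± 0.12 for HF over LF. Without LF 6 the last was −0.19, and HFLF over LF was −0.04, against −0.26 without LF 2. Without the testis-high libraries the differences were 0.10 ± 0.10 for HFLF over HF, 0.03 ± 0.13 for HFLF over LF and −0.07 ± 0.14 for HF over LF. The antisense gene Gm17029 covers 28.3% of the exons of Pex14 and had a mean of 0.99 CPM in HFLF, 0.82 in HF and 0.97 in LF in eWAT, so the reads of the overlap cannot be assigned to either strand.

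Pex13 (chr11:23646479-23665959) ran from 106 to 150 CPM in HFLF, from 106 to 118 in HF and from 84.4 to 127 in LF in eWAT. Here LF 6, the highest LF library for Pex16, Pex5 and Pex14, was the lowest. The log2 differences were 0.19 ± 0.10 for HFLF over HF (edgeR adjusted p = 0.572), 0.19 ± 0.11 for HFLF over LF and 0.00 ± 0.11 for HF over LF. Without LF 6, HFLF over LF was 0.08 and HF over LF −0.11, and without the testis-high libraries the 3 differences were 0.15, 0.11 and −0.04. In liver Pex13 ran from 51.7 to 59.4 CPM in HFLF, from 48.6 to 59.6 in HF and from 48.7 to 59.6 in LF, with differences of −0.01 to 0.02.

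The ligase subunit Pex2 (chr3:5560188-5576239) varied least between eWAT arms, at 38.7 ± 1.94 CPM in HFLF, 39.0 ± 2.76 in HF and 36.7 ± 1.30 in LF (SD, n = 6, 6 and 4). In liver it averaged 49.2 ± 4.23 CPM in HFLF, 48.1 ± 3.17 in HF and 48.4 ± 2.03 in LF. The ATPase Pex6 (chr17:46711463-46725541) averaged 123 ± 24.9 CPM in HFLF, 121 ± 18.3 in HF and 133 ± 16 in LF in eWAT, and 196 ± 22.4 in HFLF, 196 ± 10.9 in HF and 199 ± 19.0 in LF in liver. Both genes overlapped between all arms in both tissues.

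**Figure D3:**
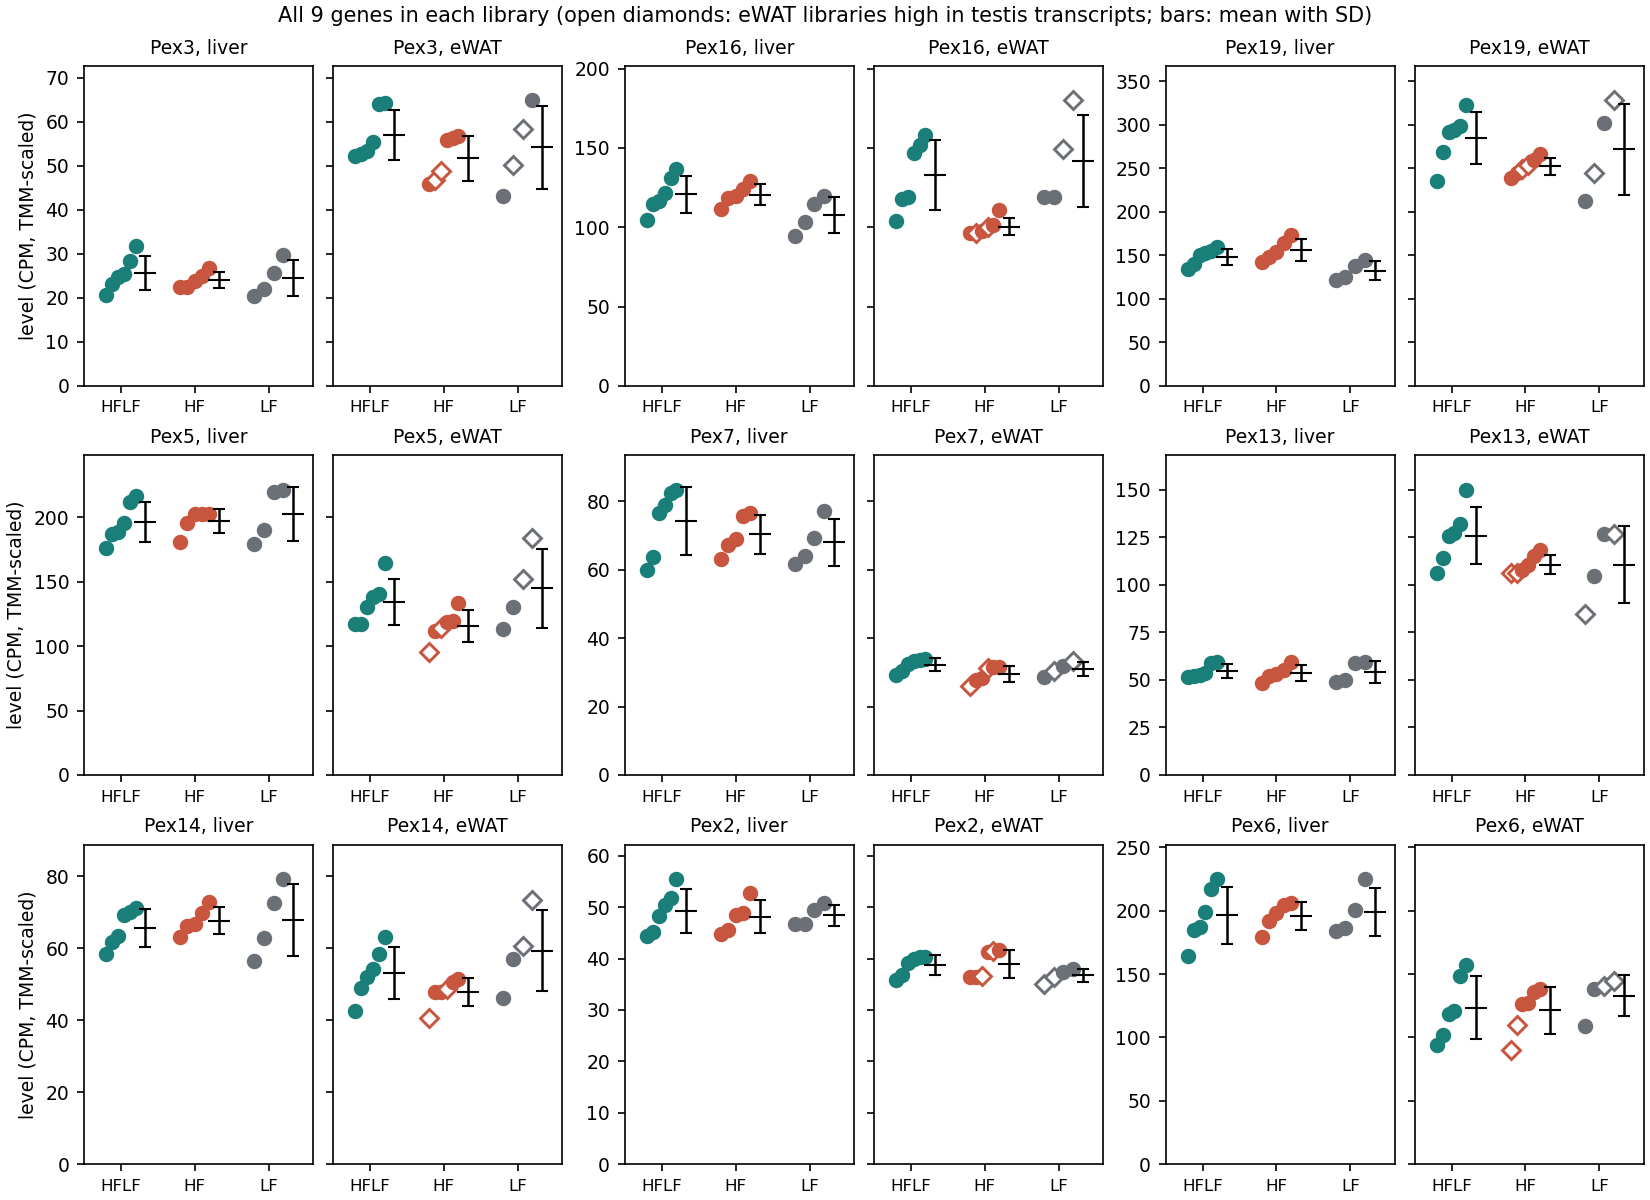
Level of each of the 9 genes (CPM, TMM-scaled within a tissue) in every library, liver beside eWAT on a shared axis, with arms from HFLF to LF, means with SD bars and open diamonds for the eWAT libraries high in testis transcripts. CPM is not scaled by length, so heights compare libraries of a gene and not genes, and Pex16 in eWAT is the panel whose 6 HF libraries all lie below the LF libraries.

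Over the 9 genes, 8 of 9 were above 0 in eWAT for HFLF over HF, with Pex2 the exception, and their median was 0.15 on the log2 scale, against 0.00 for all eWAT genes. For HFLF over LF, 5 of 9 were above 0 in eWAT (median 0.05, all genes 0.01), and for HF over LF 1 of 9 was, Pex2 (median −0.11, all genes 0.00). Without the testis-high libraries 7 of 9 were above 0 for HFLF over HF (median 0.10), 8 of 9 for HFLF over LF (median 0.08) and 2 of 9 for HF over LF (median −0.02). The LF arm of those counts held only LF 2 and LF 5. For HFLF over LF the count was 3 of 9 without LF 2 (median −0.03) and 7 of 9 without LF 6 (median 0.04), so it turned on single LF libraries. These comparisons share libraries, so a low HF arm enters the first and the last of them. Groups did not overlap for 0 of 9 genes in every comparison of arms but HF against LF in eWAT. Over all liver genes 0.0804% were higher and 0.11% lower without overlap in HFLF against HF, 0.424% higher and 0.519% lower in HFLF against LF, and 0.702% higher and 0.636% lower in HF against LF. Over all eWAT genes the shares were 0.651% and 0.106% in HFLF against HF, and 0.513% and 0.713% in HFLF against LF. In liver 6 of 9 were above 0 for HFLF over HF and for HFLF over LF, with medians of 0.00 and 0.02, and 3 of 9 for HF over LF, with a median of −0.01.

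**Figure D4:**
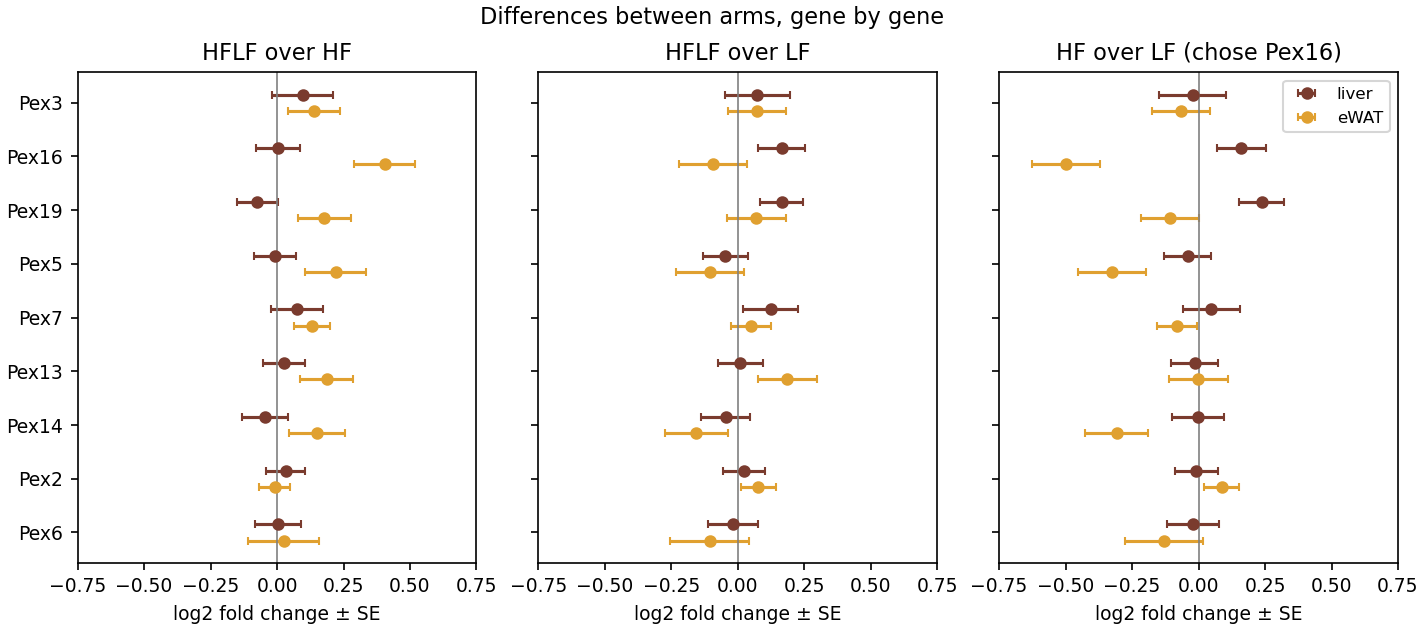
Log2 fold change ± SE of each gene in 3 comparisons of arms, in liver and in eWAT, with the HF over LF panel showing the values that chose Pex16. For HFLF over HF in eWAT, Pex16 stands at 0.40 and 8 of the 9 genes are above 0, and no value in the HFLF panels passed the adjusted threshold.

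Pex5, Pex14 and Pex16 varied together across eWAT libraries, also about the arm means. The arms are pooled in those values, and Pex16 spread less in HF (SD 5.43 CPM) than in HFLF (22.2) or LF (29.1). Covariation within each arm was not tested. Over 16 eWAT libraries, log2 CPM of Pex5 and Pex14 had a Pearson r of 0.943 (rho 0.876), Pex5 and Pex16 had 0.877 (rho 0.809), and Pex14 and Pex16 had 0.848 (rho 0.729). Pex5 with Pex14 gave a permutation p of 1e-05 for r, the smallest that 100000 resamples can give. After adjustment over the 72 pairs of both tissues it was 0.00024. Libraries were shuffled across arms, so a p for the eWAT pairs with Pex16 draws on the low HF arm that chose it. No p is read for those pairs. About the arm means, r was 0.932, 0.832 and 0.832 in that order of pairs. It was 0.886, 0.771 and 0.762 without the 2 libraries farthest from the median of the first gene of each pair, and 0.858, 0.781 and 0.717 over the 12 libraries not high in testis transcripts. These libraries also share their RNA makeup, so the values are a description of covariation.

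No p is read for the eWAT pairs with Pex16, so they are left out of the pairs that passed. Among the other eWAT pairs, Pex5 with Pex14 passed, as given above. Pex3 with Pex13 (r = 0.728, rho 0.835, adjusted permutation p for r = 0.0131) and Pex14 with Pex19 (r = 0.695, rho 0.721, adjusted permutation p for r = 0.0258) also passed there. In liver 3 of 36 pairs passed, all with positive r. The liver pairs were Pex3 with Pex13 (r = 0.809), Pex3 with Pex7 (r = 0.808) and Pex5 with Pex14 (r = 0.757), over 15 libraries. Pex3 with Pex13 and Pex5 with Pex14 thus passed in both tissues. Pex16 did not pass with any gene in liver, where r was 0.187 with Pex5 and 0.518 with Pex14 (adjusted permutation p = 0.871 and 0.182). Whether these correlations differ between the tissues was not tested. The share of all gene pairs that would pass was not computed, so the pairs that passed have no background. In eWAT Psmd4 (r = 0.947), Agpat2 (r = 0.938) and Mrap (r = 0.911), described below, were closer to Pex16 than Pex5 (r = 0.877) or Pex14 (r = 0.848).

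**Figure D5:**
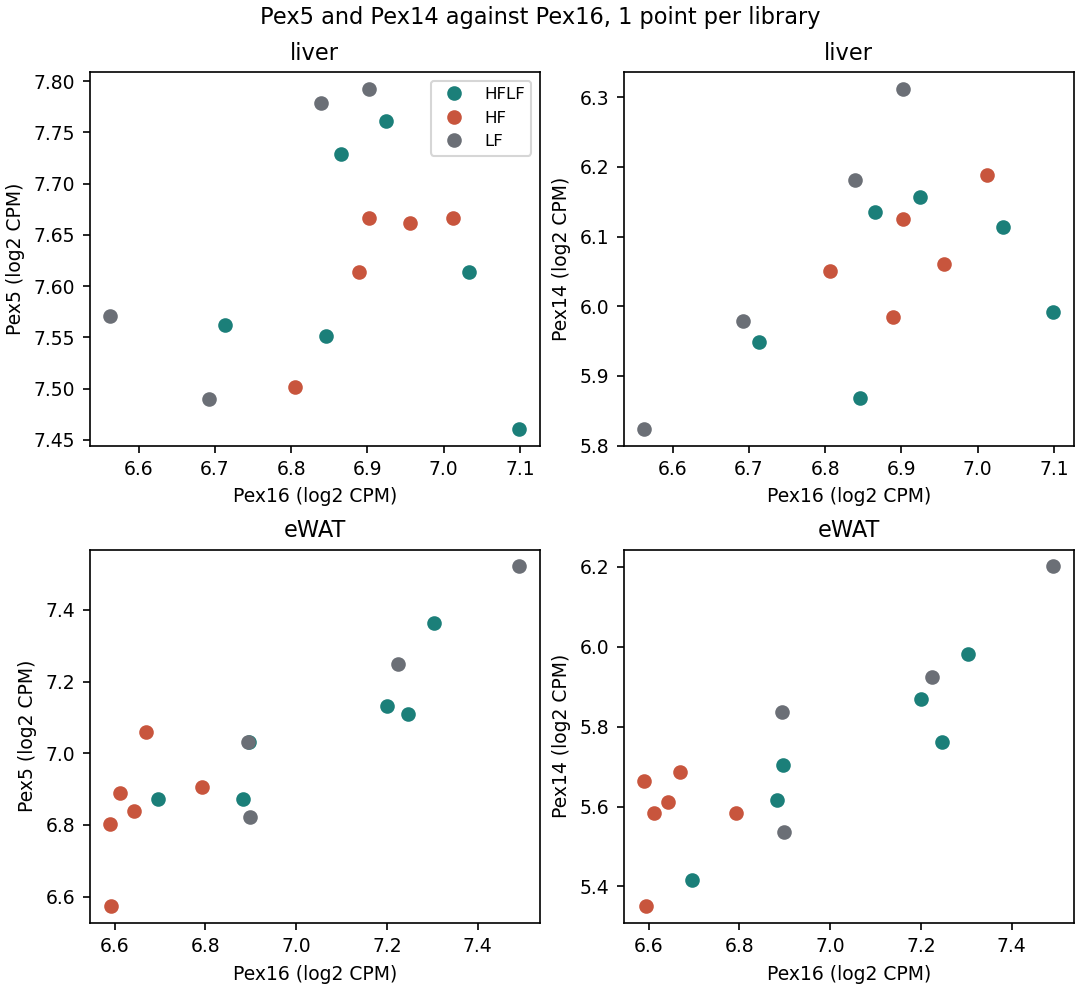
Log2 CPM of Pex5 and of Pex14 against Pex16, 1 point per library, coloured by arm, for liver (n = 15) and eWAT (n = 16). In eWAT both genes increase along Pex16 (r = 0.877 and 0.848) with LF 6 at the top right, and the liver points are spread (r = 0.187 and 0.518).

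The sequence just before the start of these 3 genes is shown because they varied together in eWAT. RefSeq gave a promoter for 7 of the 9 genes (GRCm38.p6), and the stretches run 5′ to 3′ on the strand of the gene up to its start, with no annotated exon in them. Capitals mark matches to CCAAT, or to the GC box GGGCGG, on either strand.
Pex16, chr2:92374426-92374675, plus strand: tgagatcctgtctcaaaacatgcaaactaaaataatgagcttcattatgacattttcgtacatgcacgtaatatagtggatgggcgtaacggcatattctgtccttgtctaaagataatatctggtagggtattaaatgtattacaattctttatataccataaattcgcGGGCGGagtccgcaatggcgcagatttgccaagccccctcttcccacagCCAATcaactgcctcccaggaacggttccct
Pex5, chr6:124415068-124415317, minus strand: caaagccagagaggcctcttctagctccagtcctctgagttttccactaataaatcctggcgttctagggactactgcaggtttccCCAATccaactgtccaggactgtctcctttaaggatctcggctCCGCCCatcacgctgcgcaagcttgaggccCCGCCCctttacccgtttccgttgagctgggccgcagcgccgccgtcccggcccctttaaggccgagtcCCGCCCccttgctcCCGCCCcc
Pex14, chr4:149099877-149100093, minus strand: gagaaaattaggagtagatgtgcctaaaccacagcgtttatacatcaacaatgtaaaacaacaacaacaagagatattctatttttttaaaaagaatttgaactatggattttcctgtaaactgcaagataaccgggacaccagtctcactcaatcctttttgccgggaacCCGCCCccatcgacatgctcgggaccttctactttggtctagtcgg
Pex16 held 1 CCAAT and 1 GC box, Pex5 held 1 CCAAT and 4 GC boxes, and Pex14 held 1 GC box and no CCAAT. Among all 32851 mouse promoters, 33.8% had a CCAAT and 32.7% a GC box in the 250 bases before the start, and 28% had a GC box in a window like that of Pex14 (217 bases, since 33 bases next to the RefSeq start are annotated as exon). The E-box CACGTG, the ETS motif CCGGAAGT and the nuclear receptor half-site AGGTCA were in none of the 3 stretches on either strand, and are in 6.02%, 2.88% and 14% of the 250-base windows. The windows of Pex16 and Pex14 were 42.8% and 41% G or C, against 61.6% for Pex5. A match is a string of letters and was not tested as a binding site.

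Pex16 starts head to head with Large2, a glycosyltransferase gene on the other strand, and their exons overlap over 127 bases, 7.16% of the exons of Pex16. Large2 was measured in liver only, at 1.18 ± 0.57 CPM in HFLF, 1.52 ± 0.19 in HF and 0.97 ± 0.22 in LF (SD), far under the levels of Pex16. The next measured gene downstream, 1700029I15Rik, 1320 bases past the end of Pex16, averaged 5.38 ± 1.04 CPM in HFLF, 3.81 ± 0.96 in HF and 5.68 ± 1.44 in LF in eWAT. Phf21a, 10009 bases before Pex16, averaged 42.6 ± 3.8 CPM in HFLF, 45.3 ± 4.95 in HF and 44.3 ± 3.8 in LF. In eWAT the order of the arm means in the downstream gene was that of Pex16, at a much lower count, and in Phf21a it was not. The arms of the downstream gene overlapped there, and its highest LF libraries were the testis-high LF 3 and LF 6 (7.21 and 6.58 CPM). In liver the downstream gene averaged 2.96 CPM in HFLF, 3.20 in HF and 2.82 in LF, with LF libraries from 1.65 to 4.11 CPM. The mean was lowest in LF for Pex16 in liver too, where HFLF and HF were alike (log2 0.00 ± 0.08).

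The genes whose log2 CPM was most like that of Pex16 across the 16 eWAT libraries were Psmd4, a ubiquitin receptor of the proteasome (r = 0.947), Agpat2, an enzyme of glycerolipid synthesis (r = 0.938), and Mrap, an accessory protein of the ACTH receptor in fat cells (r = 0.911), out of 15986 genes. Across the 15 liver libraries they were Nudt9, an ADP-ribose hydrolase (r = 0.858), Iscu, the scaffold of iron-sulfur cluster assembly (r = 0.797), and Apoa2, a lipoprotein component (r = 0.790). No gene was named in both tissues. Summed adipocyte markers, at 37857 to 50372 CPM in HFLF, 35585 to 47182 in HF and 34195 to 48118 in LF, overlapped between the arms in eWAT. Their median was lowest in HF, at 39193 CPM, against 45038 in HFLF and 44696 in LF. The part of these markers in Pex16 was not tested.

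Other genes of the peroxisome were read from 8 lists. No gene of either table passed in any comparison of arms by edgeR, with 255 to 748 liver genes and 1126 to 1733 eWAT genes under an unadjusted p of 0.05. In the list of remaining peroxins, 8 of 8 were above 0 in eWAT for HFLF over HF (median 0.18), beside 8 of the 9 genes described here, and 6 of 8 for HFLF over LF (median 0.05). That list counts Pex5l, which was low and variable in eWAT, at 3.02 ± 3.32 CPM in HFLF and 1.32 ± 1.14 in LF (SD). The testis-high libraries were kept in these counts. In liver 5 of 7 were above 0 for HFLF over LF (median 0.02). The 18 genes of peroxisomal beta-oxidation include cargo of the import machinery. In liver all 18 were above 0 for HFLF over LF (median 0.24, all genes 0.00). For HF over LF, 16 of 18 were above 0 in liver (median 0.20), and for HFLF over HF 11 of 18 (median 0.01). The comparisons with LF share their LF livers, so a low LF arm enters each of them. Acaa1a, a thiolase brought in by Pex7, was at 319 ± 27.9 CPM in HFLF and 264 ± 19.3 in LF (log2 0.28 ± 0.10, edgeR adjusted p = 0.850). Summed hepatocyte markers were 96165 to 126092 CPM in HFLF livers and 99176 to 105202 CPM in LF livers, with 5 of 6 HFLF livers above every LF liver, and their part in these values was not tested. Ppara, the nuclear receptor that turns on many of these enzymes in liver, averaged 116 ± 30.4 CPM in HFLF and 67.8 ± 10.5 in LF (log2 0.77 ± 0.20, edgeR adjusted p = 0.639). The median of the 9 genes was 0.02 in that comparison.

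Between tissues, the beta-oxidation list and the list of other matrix enzymes had larger medians than the 9 genes. The other matrix enzymes were higher in liver in 16 of 16 measured genes (median 1.86), and those of beta-oxidation in 14 of 16, with 2 lower (median 2.86), against a median of 1.07 for the 9 genes. In all, 6 of 7 remaining peroxins passed as higher in liver (median 1.14), led by Pex26, the membrane anchor of Pex6, at log2 2.66 ± 0.07 (edgeR adjusted p = 1.03e-25). The 4 genes of ether lipid synthesis went mostly the other way, 1 higher and 3 lower in liver (median −1.41), with Far1, which makes the fatty alcohols for ether lipids, at log2 −3.62 ± 0.13 (adjusted p = 4.78e-22). The ABC transporters that bring fatty acids into peroxisomes were divided, Abcd3 at 3.38 ± 0.09 and Abcd2 at −4.47 ± 0.24. Of the nuclear receptors and partners linked to peroxisome number, 4 of 6 were higher and 2 lower in liver, with Pparg, the receptor that directs fat cell formation, at −4.52 ± 0.16.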

How the data were processed

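Libraries were made from total RNA. The submitters' processing notes name STAR and GRCm38.p6. No source used here gives how reads were counted, by which annotation or on which strand. The authors deposited whole-number counts per gene, already filtered by CPM as the tables are named, and all columns were matched to samples. Deposited RPKM tables were not used, because the length implied by counts and RPKM differed over 2-fold between libraries in 99.978% of liver and 99.937% of eWAT genes.

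Counts were fitted with edgeR 4.0.16 (R 4.3.3, quasi-likelihood, robust, TMM, filterByExpr, which removed 0 genes), 1 fit per tissue and 1 joint fit of both tissues for liver against eWAT and for differences between tissues. P-values were adjusted over all genes (threshold 0.05), and log2 CPM used a prior count of 2. Log2 fold changes are given with their SE, as the first arm or tissue named over the second. Pairs of genes were correlated with 100000 permutations. Between animals the coefficient of variation of a gene was typically 0.194 (liver) and 0.219 (eWAT). No library pair agreed within sampling noise (67 pairs). Alternatives were edgeR with RLE factors or library totals, no filter, DESeq2 1.42.0, limma voom 3.58.1, fewer groups or libraries, and a replicate block.

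Symbols, positions and exon lengths came from GENCODE M21 (13662 liver and 15969 eWAT identifiers matched). The fits were tested on simulated data. Genes, lists and tests were chosen with earlier results of these data known. Named genes of other lists were those of smallest unadjusted p for HFLF over LF, or largest fold between tissues, and some are left out for length. The 3 genes most like Pex16 were those of highest r.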

Additional observations from a re-analysis of the deposited data

Results flagged for a closer look

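Within HF eWAT libraries, 1 value stood apart from the rest in 2 genes. Pex14 was 40.7 CPM in HF 2, against 47.8 to 51.4 CPM in the other 5 HF libraries, and HF 2 was 1 of the libraries high in testis transcripts. Pex16 was 110.7 CPM in HF 4, against 96.2 to 101.6 CPM in the other 5 HF libraries, and HF 4 still lay below all LF libraries. These were 2 of 54 groups looked at, and chance sets apart about 1 in 20.

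The HF over LF difference ran above 0 in liver and below 0 in eWAT for Pex16, a gap of 0.6428 on the log2 scale (liver minus eWAT), and for Pex19, a gap of 0.3312. No test is given for either, since HF against LF is the comparison that singled out Pex16, and the difference was not tested here. The Pex16 gap was 0.38 and the Pex19 gap was 0.26 without the 4 testis-high eWAT libraries.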

How the results depend on the processing

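None of the 9 genes passed for HFLF against HF or LF, or in the differences of these between tissues, under any alternative (DESeq2 gave no adjusted p to 6 of the 9 for the tissue difference in HFLF over LF), with a range of 0 to 0 when each library was left out. Liver against eWAT kept 9 calls when each library was left out, and gave 8 with library totals alone and 8 without the testis-high libraries. The reversed value was Pex16 in liver over eWAT, −0.083 with library totals alone (adjusted p = 0.178), where the median of all genes moved to −0.73 by the construction of that scaling. Over all genes edgeR called 0 between arms, and up to 13 when 1 library was left out (HFLF over LF in eWAT without LF 5). DESeq2 called 0, 11 and 1 in liver and 52, 69 and 12 in eWAT (HFLF over HF, HFLF over LF, HF over LF), and 23 for the difference between tissues in HFLF over LF, where edgeR called 17 without the B cell-high libraries. The main fits did not pair samples by replicate number. Liver and eWAT libraries of the same arm and number may come from 1 animal, which the correlations given next cannot decide. Same-numbered libraries of different arms correlated at −0.34 to 0.38 in eWAT and −0.10 to 0.38 in liver, and those of both tissues at −0.07 to 0.14, with 5 of 16, 5 of 14 and 4 of 14 libraries correlating best with their own number. The replicate block gave 0 calls among the 9 genes for HFLF against HF or LF and 9 between tissues, and over all genes 1 call in liver for HFLF over LF. The alternatives of the correlations were chosen after seeing the data. With 4 to 6 libraries per arm, differences of the sizes seen here did not pass after adjustment over all genes. The cause of moved values was not tested.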
